A study of Mus musculus with 18 samples.

Results

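The 6 genes described here encode transporters of glutamate, the main excitatory transmitter of the spinal cord. The 3 vesicular carriers, Slc17a6 (VGLUT2), Slc17a7 (VGLUT1) and Slc17a8 (VGLUT3), belong to 1 family, and 3 carriers of the plasma membrane, Slc1a1 (EAAT3), Slc1a2 (EAAT2, GLT-1) and Slc1a3 (EAAT1, GLAST), belong to another. They were selected by name from the 27179 genes in the count tables, and the choice was made from a report in which their levels in these libraries were already in view. No cutoff was used, so there are no genes just inside or outside one. Their levels, fold changes and calls are therefore given as a description, without p-values, and all 6 passed the filter on low counts.

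Vesicular carriers load glutamate into synaptic vesicles, and a neuron that releases glutamate needs at least one of them. In the spinal cord VGLUT2 is the usual carrier of excitatory interneurons, VGLUT1 is best known from sensory afferents, and VGLUT3 is found in small populations. Plasma membrane carriers do the opposite work and clear glutamate from outside the cell. EAAT3 is mainly neuronal, whereas EAAT1 and EAAT2 are known from radial glia and astrocytes, so the members of the second family do not by themselves mark a glutamatergic neuron.

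Bulk RNA-seq was made from embryoid bodies of mouse embryonic stem cells (Ainv15 lines) that were directed to ventral spinal neurons with retinoic acid and SAG, a Smoothened agonist that acts as a Hedgehog signal. There were 18 libraries in 6 groups of 3. Day 2 progenitors came from the iCre line and were collected before any induction. Control cells were the iFlag.Hoxc6 line at day 4 without doxycycline (Dox). The iHoxc6, iHoxc8, iHoxc9 and iHoxc10 groups each came from 1 line with a single-copy, Flag-tagged Hox gene of that name under a Dox-inducible promoter at the Hprt locus, induced with 3 µg/ml Dox at day 2 and collected 48 h later, at day 4. All groups received retinoic acid and SAG. Every cell of an induced culture carries the Dox-inducible gene, not only its neurons, and the cultures hold motor neurons together with other cells, so fewer cells of a type and less RNA per cell cannot be told apart in any result below.

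Library totals ran from 24498630 to 33168533 counts, and 3 counts, taken as the floor, stood for 0.0904 to 0.122 CPM, the library-scaled count used throughout. The induced gene was seen in its own line: Hoxc9 lay between 213.3 and 235.8 CPM in iHoxc9 libraries and at most at 0.133 CPM elsewhere, and Hoxc6, Hoxc8 and Hoxc10 were also higher in every library of their own line than in any other library. By flow cell, the libraries fell into 4 runs: day 2 progenitors; control with iHoxc6; iHoxc8; and iHoxc9 with iHoxc10. Only iHoxc6 against control and iHoxc9 against iHoxc10 were thus compared within a run, and elsewhere an effect of the run cannot be told apart from one of the Hox gene. Control cells had no Dox, so Dox itself and the gene it induced cannot be told apart either. Apart from iHoxc6 against control, every comparison was also between different cell lines, iHoxc9 against iHoxc10 among them. There an effect of the line cannot be told apart from one of the Hox gene. Comparisons with day 2 progenitors differed in day as well. Neuron markers summed to between 5539 and 8190 CPM in the day 4 libraries and to between 295.5 and 593.9 CPM at day 2, and markers of microglia were at or under 3 counts in every day 4 library.

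The 3 vesicular carrier genes lie at different places. Slc17a6 (Entrez 140919) spans chr7:51621830-51671126 on the plus strand of mm10, and Slc17a7 (72961) spans chr7:45163921-45176139 on the same strand. The gap from the end of Slc17a7 to the start of Slc17a6 is 6.45 Mb. Slc17a8 (216227) spans chr10:89574020-89621249 on the minus strand. RefSeq lists 2 starts for Slc17a6, and the counts, which are summed over the gene, do not tell which was used. The 250 bases upstream of each start are shown because Slc17a6 is the member that set iHoxc9 libraries apart, with the same window of Slc17a7 for comparison. All are printed 5′ to 3′ on the gene's strand (RefSeq, GRCm38.p6). Capitals mark TTTAT, a core bound by posterior Hox proteins, and TGATNNAT, a composite Hox and Pbx motif, each in either orientation.
Slc17a6 start 1, chr7:51621580-51621829: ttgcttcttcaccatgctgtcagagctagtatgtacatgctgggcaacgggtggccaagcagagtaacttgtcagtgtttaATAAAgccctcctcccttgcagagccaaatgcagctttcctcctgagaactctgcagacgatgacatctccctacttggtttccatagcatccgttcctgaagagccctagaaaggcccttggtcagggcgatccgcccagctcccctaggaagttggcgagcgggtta
Slc17a6 start 2, chr7:51624387-51624636: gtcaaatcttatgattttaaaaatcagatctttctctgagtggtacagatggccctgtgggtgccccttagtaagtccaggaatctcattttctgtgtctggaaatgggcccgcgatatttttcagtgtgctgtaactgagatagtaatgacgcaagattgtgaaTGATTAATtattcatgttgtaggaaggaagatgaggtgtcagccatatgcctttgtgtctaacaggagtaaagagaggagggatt
Slc17a7, chr7:45163671-45163920: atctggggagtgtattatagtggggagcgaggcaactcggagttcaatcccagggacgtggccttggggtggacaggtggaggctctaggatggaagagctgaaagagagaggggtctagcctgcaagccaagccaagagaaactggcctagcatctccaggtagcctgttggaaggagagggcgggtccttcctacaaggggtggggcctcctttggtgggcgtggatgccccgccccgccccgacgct

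The first Slc17a6 window held 1 TTTAT and the second held 1 TGATNNAT, whereas the Slc17a7 window held neither. The match was not particular to Slc17a6, since 1 TTTAT also lay in the first of 2 Slc17a8 windows and in the Slc1a3 window, and the windows of Slc1a1 and Slc1a2 held neither motif. The only Slc1a2 window, chr2:102706188-102706437, lies inside the gene, which spans chr2:102658239-102790784. The bases before the start of that span were not searched. Among 32851 promoter windows of the same length, 37.3% held TTTAT and 7.68% held TGATNNAT. The motifs were searched on both strands, and these matches describe letters and not binding. Base composition also differed between the windows, with 53.2% G and C at the first start of Slc17a6, 41.2% at the second and 61.2% at Slc17a7, beside a median of 52.4% over all windows.

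Slc17a6 was below 1 CPM in 5 of the 6 groups and was present at about 12 CPM in iHoxc9 alone. Control libraries held 7, 8 and 2 reads of the gene, or 0.225, 0.308 and 0.0749 CPM. The iHoxc9 libraries held 270, 506 and 254 reads, or 10.56, 14.89 and 10.11 CPM. In iHoxc10 libraries, sequenced in the same run, the counts were 17, 19 and 10, or 0.595, 0.681 and 0.405 CPM. Every iHoxc9 library was thus far above every other library, and the lowest iHoxc9 value exceeded the highest value elsewhere, which was in iHoxc10. The levels of iHoxc6 (0.209, 0.436 and 0.208 CPM) overlapped those of control, and those of iHoxc8 (0.444, 0.434 and 0.375 CPM) did not, but lay below 0.5 CPM. Day 2 progenitors held 0.337, 0.632 and 0.281 CPM.

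The mean level of Slc17a6 was 11.85 ± 2.64 CPM (SD, n = 3) in iHoxc9 and 0.203 ± 0.118 CPM (SD, n = 3) in control. The log2 fold change between them was 5.84 ± 0.36 (SE), or 57.4-fold. The fold rests on few control reads, which is why the alternatives moved it between 5.44 and 6.22 on the log2 scale. Against iHoxc10, a different line in the same run, the log2 fold change was 4.38 ± 0.32, or 20.9-fold. Against day 2 progenitors it was 4.82 ± 0.33. In iHoxc10 the gene was higher than in control by 1.46 ± 0.44 on the log2 scale, in iHoxc8 by 1.03 ± 0.45 and in iHoxc6 by 0.50 ± 0.48, and none of these passed the thresholds, although the iHoxc10 value went under the adjusted p threshold without control replicate 2 (1.84). The order of the group means was iHoxc9, iHoxc10, iHoxc8, day 2 progenitors, iHoxc6 and control, and after iHoxc9 each neighbour overlapped the next.

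**Figure D1:**
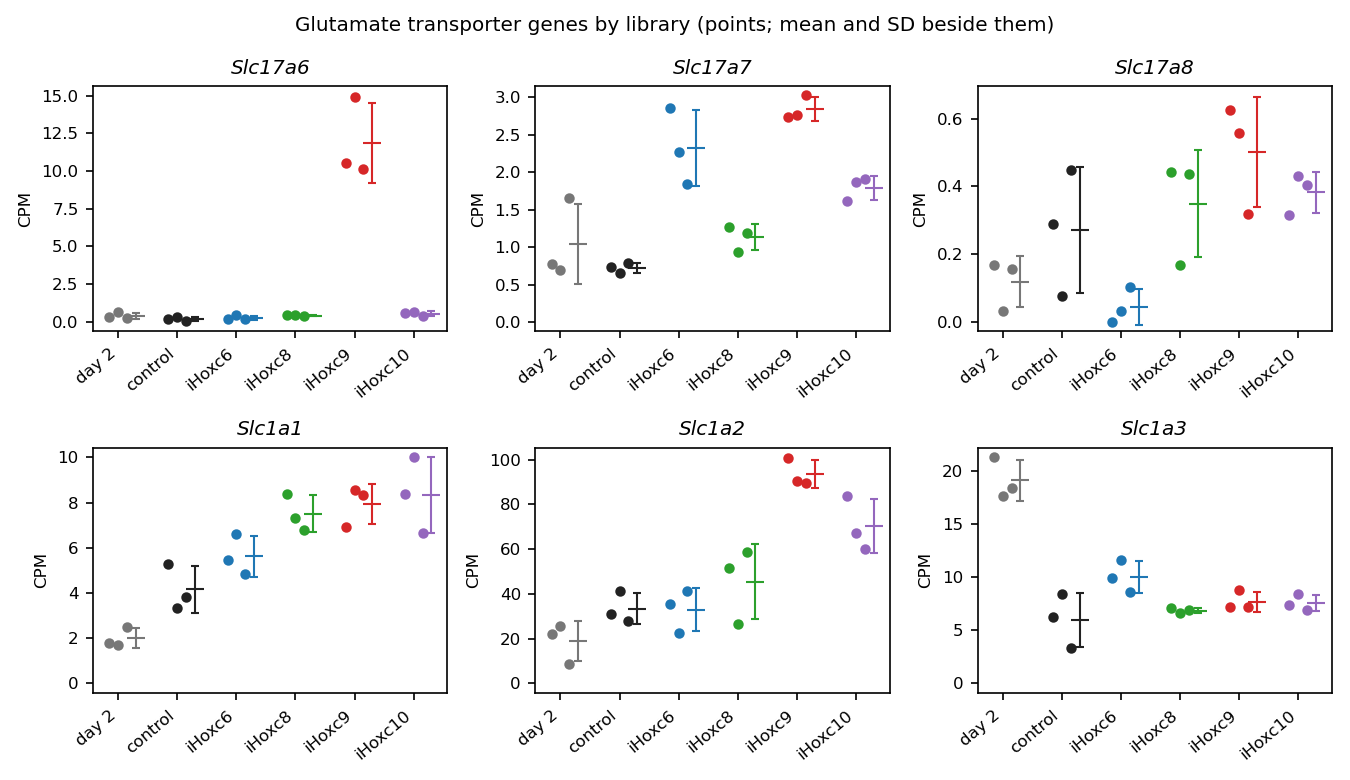
Level of each gene in CPM (vertical axes, 1 scale per gene) in the 18 libraries. Points are libraries, replicates 1 to 3 from left to right, with the group mean (dash) and SD (bar) beside them. Slc17a6 stands at 10.11 to 14.89 CPM in iHoxc9 and below 1 CPM in all other libraries, Slc1a2 is highest in iHoxc9, and Slc1a3 is highest at day 2.

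Slc17a7 was higher than control in iHoxc6, iHoxc9 and iHoxc10, and stayed at a few CPM throughout. Control libraries held 0.739, 0.655 and 0.786 CPM. In iHoxc9 the values were 2.738, 2.766 and 3.025 CPM, in iHoxc6 they were 2.859, 2.272 and 1.841 CPM, and in iHoxc10 they were 1.611, 1.863 and 1.904 CPM. None of these libraries overlapped the control range, and the iHoxc8 libraries (1.272, 0.935 and 1.188 CPM) also lay above it. The log2 fold change against control was 1.96 ± 0.29 in iHoxc9, 1.67 ± 0.29 in iHoxc6 and 1.29 ± 0.30 in iHoxc10, each under the adjusted p threshold and each short of a log2 fold change of 2, and it was 0.64 ± 0.30 in iHoxc8, which did not pass. The iHoxc6 value came from the same line and run as control. It lost its call when only these 2 groups were fitted (1.67) and without control replicate 1 (1.68), control replicate 3 (1.74) or iHoxc6 replicate 1 (1.53), and the iHoxc10 value lost it without control replicate 1 (1.31) or iHoxc10 replicate 2 (1.27).

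Unlike Slc17a6, Slc17a7 did not separate iHoxc9 from every other line. The iHoxc9 and iHoxc6 libraries overlapped, and iHoxc6 was lower than iHoxc9 by a log2 fold change of -0.29 ± 0.26. Between iHoxc9 and iHoxc10 the difference was 0.67 ± 0.27 and did not pass. Every iHoxc9 library nevertheless lay above every iHoxc10 library, and above every iHoxc8 library. At day 2 the gene held 0.775, 0.699 and 1.655 CPM, a range that overlapped control.

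Slc17a8 was the rarest of the 6 genes in every group but control and was close to absent in iHoxc6. The iHoxc6 libraries held 0, 1 and 3 reads, all at or under the floor, beside 9, 2 and 12 reads in control. The counts were 16, 19 and 8 in iHoxc9, 9, 12 and 10 in iHoxc10, and 15, 5 and 14 in iHoxc8. Day 2 progenitors held 5, 1 and 5 reads. Only the second control library came as low as the third iHoxc6 library, so the iHoxc6 and control ranges overlapped, while the ranges of the other induced lines lay above iHoxc6. The ratio of summed counts, scaled for depth, was 6.15 for control over iHoxc6, with an exact 95% interval of 2.1 to 24.45. It was 7.96 (2.84 to 30.86) for iHoxc8, 11.38 (4.13 to 43.64) for iHoxc9 and 8.56 (3.02 to 33.37) for iHoxc10, and these intervals cover counting error only.

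The fitted log2 fold change of Slc17a8 was -3.38 ± 0.73 for iHoxc6 against iHoxc9 and -2.98 ± 0.76 for iHoxc6 against iHoxc10, and both passed the 2 thresholds. Against control it was -2.50 ± 0.80, which did not pass. With so few reads, leaving out iHoxc6 replicate 1 (-2.81) or 2 (-3.13) or iHoxc9 replicate 1 (-3.21) ended the call against iHoxc9. The call against iHoxc10 ended without iHoxc6 replicate 1 (-2.46) or 2 (-2.78) or without iHoxc10 replicate 1 (-3.11), 2 (-2.89) or 3 (-2.95).

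The plasma membrane carriers held most of the transporter RNA, and Slc1a2 was the most abundant of the 6 genes on day 4. Slc1a2 (20511) spans chr2:102658239-102790784 on the plus strand, and its exons overlap those of an antisense gene, Gm13872, in a short stretch. Control libraries held 31.19, 41.13 and 27.73 CPM and iHoxc6 libraries 35.28, 22.56 and 41.12 CPM, with overlapping ranges. The iHoxc9 libraries held 100.8, 90.62 and 89.64 CPM and the iHoxc10 libraries 83.75, 67.25 and 59.96 CPM. Both of these lines lay above every control library, and iHoxc9 lay above iHoxc10 in every library. The iHoxc8 libraries were spread from 26.55 to 58.67 CPM and overlapped control.

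In log2 terms Slc1a2 was higher than control by 1.49 ± 0.30 in iHoxc9, under the adjusted p threshold, and by 1.08 ± 0.30 in iHoxc10, which did not pass. Without control replicate 3 the iHoxc9 value (1.34) lost that call, and the iHoxc10 value gained it in 5 of 12 alternatives, namely without control replicate 2 (1.25), with DESeq2 (1.09), with its size factors in edgeR (1.09), with no filter on low counts (1.05) and when only the 2 groups were fitted (1.05). The 2 lines were not separated by the fit, with a log2 difference of 0.41 ± 0.29. The differences from control were 0.45 ± 0.30 in iHoxc8 and -0.02 ± 0.30 in iHoxc6. Day 2 progenitors held 22.06, 25.63 and 8.87 CPM, and iHoxc9 was above them by 2.31 ± 0.31, past both thresholds, although this fell to 1.97 without day 2 replicate 3.

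The list of astrocyte markers was set beside Slc1a2 with the same fit. The 6 genes of that list summed to between 18.38 and 24.99 CPM in control, 20.78 and 27.99 CPM in iHoxc9 and 24.19 and 26.86 CPM in iHoxc10. None of the 6 passed an adjusted p of 0.01 against control in any induced line by edgeR, beside 0.587% (iHoxc6) to 14.4% (iHoxc10) of all genes. With so few genes, a count of 0 is near such shares. Against day 2 progenitors, 2 of the 6 were lower in iHoxc9 and 0 higher by the same threshold, which 4871 of all 20944 genes passed as lower and 4903 as higher. Gfap was at or under 3 counts in every day 4 library, and Aqp4 also in every library of iHoxc6, iHoxc8 and iHoxc9. S100b was so in every library of iHoxc9 and iHoxc10. Genes at such counts say little about a difference. Progenitor and radial glia markers summed to between 951.4 and 1624 CPM in control and to between 1414 and 1514 CPM in iHoxc9, and within that list 2 genes (Sox1 and Sox2) were higher and 3 (Hes5, Fabp7 and Olig2) lower in iHoxc9 than in control. The part of these cells in the Slc1a2 values was not tested.

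Slc1a1 (20510, chr19:28835135-28913960, plus strand) was lowest at day 2 and higher in each day 4 group. Part of its exons lies opposite an antisense gene, 4430402I18Rik, and because the strand setting used in counting is not given in the sources used here, its values are uncertain. Day 2 progenitors held 1.785, 1.697 and 2.499 CPM and control 5.3, 3.35 and 3.818 CPM, and these ranges did not overlap. The values were 5.438, 6.597 and 4.828 CPM in iHoxc6, 8.4, 7.313 and 6.786 CPM in iHoxc8, 6.924, 8.535 and 8.319 CPM in iHoxc9, and 8.368, 9.996 and 6.644 CPM in iHoxc10. The last 3 lines overlapped each other and all their libraries lay above control, while iHoxc6 overlapped control.

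The log2 fold change of Slc1a1 against control was 1.00 ± 0.21 in iHoxc10 and 0.93 ± 0.21 in iHoxc9, both under the adjusted p threshold, and 0.85 ± 0.21 in iHoxc8 and 0.43 ± 0.21 in iHoxc6, which did not pass. The iHoxc8 value did pass with DESeq2 (0.81) and without control replicate 1 (1.06). Against day 2 progenitors it was 1.06 ± 0.22 in control, 1.99 ± 0.22 in iHoxc9 and 2.06 ± 0.22 in iHoxc10, and the last of these alone passed both thresholds, though not without day 2 replicate 1 (1.99), day 2 replicate 2 (1.95) or iHoxc10 replicate 2 (1.91). The iHoxc9 value against control lost its call without control replicate 3 (0.84), iHoxc9 replicate 2 (0.82) or iHoxc9 replicate 3 (0.84), and the iHoxc10 value without iHoxc10 replicate 2 (0.85).

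Slc1a3 (20512, chr15:8634124-8710807, minus strand) ran the other way and was highest before induction. Day 2 progenitors held 21.32, 17.67 and 18.37 CPM, above every day 4 library. On day 4 control held 6.264, 8.395 and 3.331 CPM, iHoxc8 7.069, 6.611 and 6.88 CPM, iHoxc9 7.158, 8.77 and 7.165 CPM, and iHoxc10 7.353, 8.419 and 6.928 CPM. The ranges of these 3 induced lines all overlapped control, and iHoxc6, at 9.935, 11.58 and 8.579 CPM, lay above all control libraries. Against day 2 progenitors the log2 fold change was -1.67 ± 0.22 in control and -0.93 ± 0.21 in iHoxc6, and the other 3 lines lay between these, at -1.48 ± 0.22 (iHoxc8), -1.31 ± 0.22 (iHoxc9) and -1.34 ± 0.22 (iHoxc10). Against control it was 0.74 ± 0.22 in iHoxc6, which did not pass unless control replicate 2 was left out (1.06), and between 0.19 and 0.36 in the other lines. Beside this, the summed astrocyte markers were between 111.5 and 150.6 CPM at day 2, most of it Gja1, the gap junction gene of astroglia and many progenitors.

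**Figure D2:**
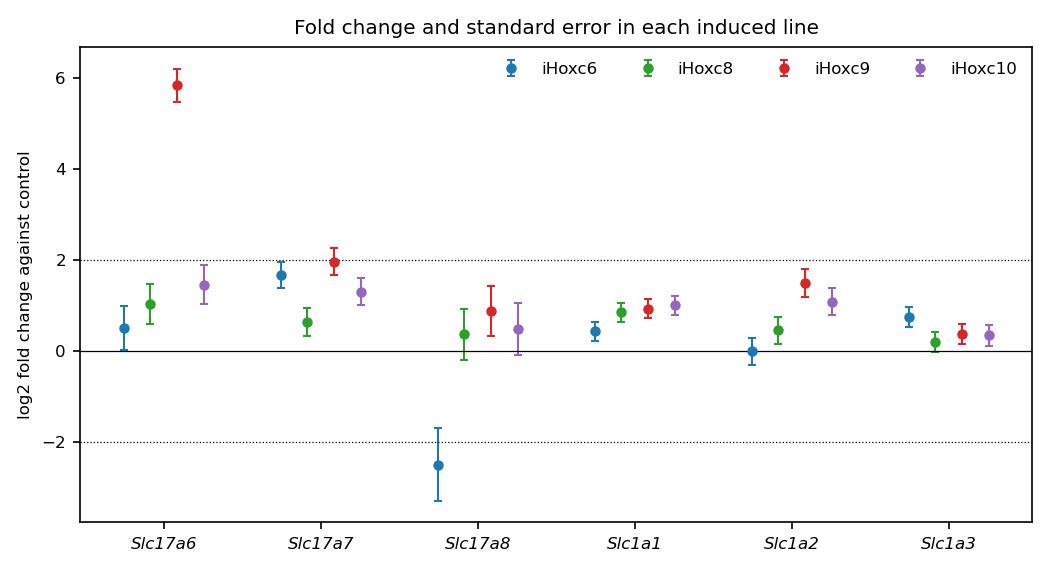
Log2 fold change against control (vertical axis) of the 6 genes in the 4 induced lines, with 3 libraries per group. Points are edgeR estimates, bars are standard errors and dotted lines mark log2 fold changes of 2 and -2. Slc17a6 in iHoxc9, at 5.84, is the single point above 2, and Slc17a8 in iHoxc6, at -2.50 with an SE of 0.80, did not pass the adjusted p threshold.

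The study's 2 thresholds were a log2 fold change beyond 2 and, by edgeR here, an adjusted p under 0.01. With both, no member was called in iHoxc6 or iHoxc8 against control, where 0.115% and 0.22% of all 20944 genes tested were called. In iHoxc9 against control 1 member was called, Slc17a6, beside 2.7% of all genes, and in iHoxc10 none was, beside 1.48%. Under the adjusted p alone the counts were 4 for iHoxc9 (14.1% of all genes), 2 for iHoxc10 (14.4%), 1 for iHoxc6 (0.587%) and 0 for iHoxc8 (2.12%), all higher than control. The median log2 fold change of the 6 members was 1.21 for iHoxc9, 1.04 for iHoxc10, 0.47 for iHoxc6 and 0.54 for iHoxc8, beside a median within 0.02 of 0 over all genes. These comparisons share the control libraries.

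Between the induced lines, iHoxc9 against iHoxc10 called 1 member, Slc17a6, under both thresholds (1.31% of all genes) and also under the adjusted p alone (4.99%). In iHoxc6, 2 members were called lower than in iHoxc9 (2.49% of all genes), Slc17a6 and Slc17a8, and 1 lower than in iHoxc10 (1.27%), Slc17a8. Against day 2 progenitors no member was called in control (12.6% of all genes), iHoxc6 (14.8%) or iHoxc8 (14.2%). Slc17a6, Slc17a8 and Slc1a2 were called higher in iHoxc9 (15.6%) and Slc1a1 in iHoxc10 (18.7%). The Slc17a8 call in iHoxc9, at a log2 fold change of 2.04 ± 0.61, was kept in 5 of 12 alternatives. It was lost without day 2 replicate 1 (2.30), day 2 replicate 2 (1.57), iHoxc9 replicate 1 (1.86) or iHoxc9 replicate 2 (1.91), and also with DESeq2 size factors (1.97), with no filter on low counts (2.00) and when only the 2 groups were fitted (1.99).

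On a scale that allows levels to be set side by side between genes, CPM per kilobase of exon, the order of the members differed between groups. Slc1a3 was first at day 2 in 3 of 3 libraries, and Slc1a2 was first in each day 4 group in 3 of 3 libraries. Slc17a6 was last of the 6 in control, at 0.0375 CPM per kilobase, and second in iHoxc9, at 2.196 CPM per kilobase. The summed level of the 6 genes was 3.975 CPM per kilobase in control, 7.768 in iHoxc10 and 11.82 in iHoxc9. The vesicular carriers made up 23.9% of it in iHoxc9 and 5.78% in control, with 10.2% in iHoxc6, 6.66% in iHoxc10 and 6.52% in iHoxc8.

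**Figure D3:**
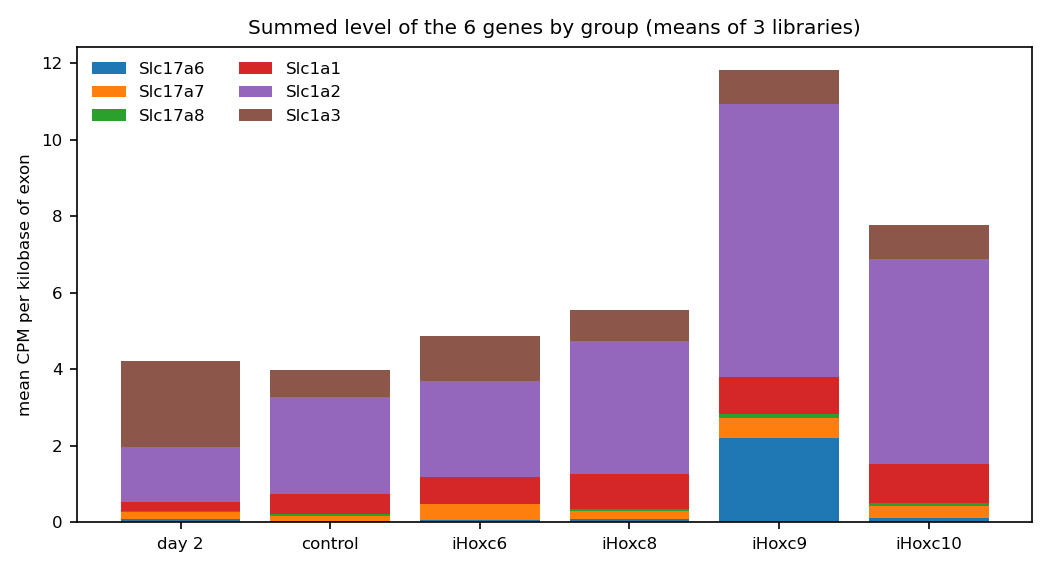
Mean level of the 6 genes in CPM per kilobase of exon (vertical axis, stacked bars, means of 3 libraries) in each group. Slc1a2 is the tallest segment in all day 4 groups, and the Slc17a6 segment, 2.196 CPM per kilobase in iHoxc9, is barely visible elsewhere.

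Loading a vesicle is 1 step of several, so the genes that make and move glutamate were examined with the same fit. Of 10 genes of glutamate synthesis and the glutamine cycle, 1 was higher in iHoxc9 than in control, Slc38a2, a glutamine transporter (log2 fold change 0.66 ± 0.17, edgeR adjusted p = 0.00667). In iHoxc10, Slc38a1, another glutamine transporter, was higher (0.57 ± 0.15, edgeR adjusted p = 0.00801) and Slc38a5 lower (-3.88 ± 0.90, edgeR adjusted p = 0.00301), the latter from levels near the floor. None passed in iHoxc6 or iHoxc8, and none between iHoxc9 and iHoxc10. Over all genes, 14.1% passed against control in iHoxc9, 14.4% in iHoxc10, 2.12% in iHoxc8 and 0.587% in iHoxc6. Between iHoxc9 and iHoxc10 the share was 4.99%, and the counts among these 10 genes were near such shares.

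The closest relatives of the members were too few to set apart from the shares over all genes. Of the other 4 SLC1 genes, 3 could be tested and none passed against control in any line. Slc1a4, a carrier of neutral amino acids and the most abundant of them, held 47.97 CPM in iHoxc9 and 41.71 CPM in control (edgeR adjusted p = 0.495). Of 6 other SLC17 genes 4 could be tested, and Slc17a4 alone passed, in iHoxc10 (4.79 ± 0.87, edgeR adjusted p = 0.000463), at a mean of 0.445 CPM. Neither gene of the cystine and glutamate exchanger passed against control.

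Markers of excitatory spinal interneurons were higher in the same line as Slc17a6. Of the 10 genes on that list, 6 were higher and 0 lower in iHoxc9 than in control at an adjusted p under 0.01, beside 1456 higher and 1494 lower of all 20944 genes (14.1% in all). Sim1, a V3 interneuron factor, was higher by 5.17 ± 0.36 (edgeR adjusted p = 6.76e-10), and Shox2, found in excitatory interneurons, by 5.10 ± 0.42 (edgeR adjusted p = 9.56e-09). Tlx3, a selector of dorsal excitatory fate, was higher by 3.36 ± 0.33 (edgeR adjusted p = 9.28e-08). Sox14 (2.52 ± 0.53, edgeR adjusted p = 0.00156) and Pou4f1 (1.33 ± 0.22, edgeR adjusted p = 0.000134) were also higher. Shox2 shares exonic bases with Rsrc1 on the other strand and is uncertain for that reason.

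The list summed to between 45.06 and 56.21 CPM in iHoxc9, 5.85 and 8.87 CPM in control and 14.67 and 20.53 CPM in iHoxc10, with no overlap among the 3 groups. In iHoxc10, 2 of the 10 were higher than control, Sim1 (3.48 ± 0.36, edgeR adjusted p = 4.9e-07) and Pou4f1 (1.74 ± 0.22, edgeR adjusted p = 7.71e-06). Over all genes, 1398 were higher and 1624 lower in that line than in control (14.4% in all). Between iHoxc9 and iHoxc10, where 544 of all genes were higher and 502 lower in iHoxc9 (4.99% in all), 5 of the 10 were higher in iHoxc9, among them Shox2 (5.57 ± 0.45, edgeR adjusted p = 1.47e-08). In iHoxc6, Tlx3 was higher than control (1.93 ± 0.33, edgeR adjusted p = 0.00235), while the Slc17a6 libraries of that line overlapped control. The share of such interneurons in the Slc17a6 values was not tested.

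Genes of other transmitters were lower or did not pass in iHoxc9. Of 10 such genes, 4 were lower than control and 0 higher, against the same 14.1% of all genes. They were Th, the first enzyme of dopamine synthesis (-3.05 ± 0.24, edgeR adjusted p = 2.87e-09), Slc32a1, the vesicular carrier of GABA and glycine (-3.13 ± 0.53, edgeR adjusted p = 0.000167), Chat, which makes acetylcholine (-1.51 ± 0.23, edgeR adjusted p = 4.73e-05), and Slc18a3, the vesicular acetylcholine carrier (-0.81 ± 0.19, edgeR adjusted p = 0.00311). Slc32a1 held 0.117, 0.0883 and 0 CPM in iHoxc9 and 0.45, 0.693 and 0.823 CPM in control, and it shares exonic bases with an antisense gene. Slc18a3 remained high, at 119.1, 130.1 and 134.6 CPM in iHoxc9 beside 196, 277.1 and 198.9 CPM in control. Gad2, another gene of this list, went the other way without passing (1.365 ± 0.454, edgeR adjusted p = 0.0315). Its levels were 1.291, 0.883 and 0.995 CPM in iHoxc9 and 0.418, 0.424 and 0.374 CPM in control. Chat and Slc18a3 are also 2 of the 7 motor neuron markers, of which Mnx1 and Lhx3 were lower as well. Isl1 (-0.86 ± 0.26, edgeR adjusted p = 0.0165), Isl2 (0.03 ± 0.22, edgeR adjusted p = 0.981) and Slc5a7 (-0.21 ± 0.35, edgeR adjusted p = 0.721) did not pass.

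**Figure D4:**
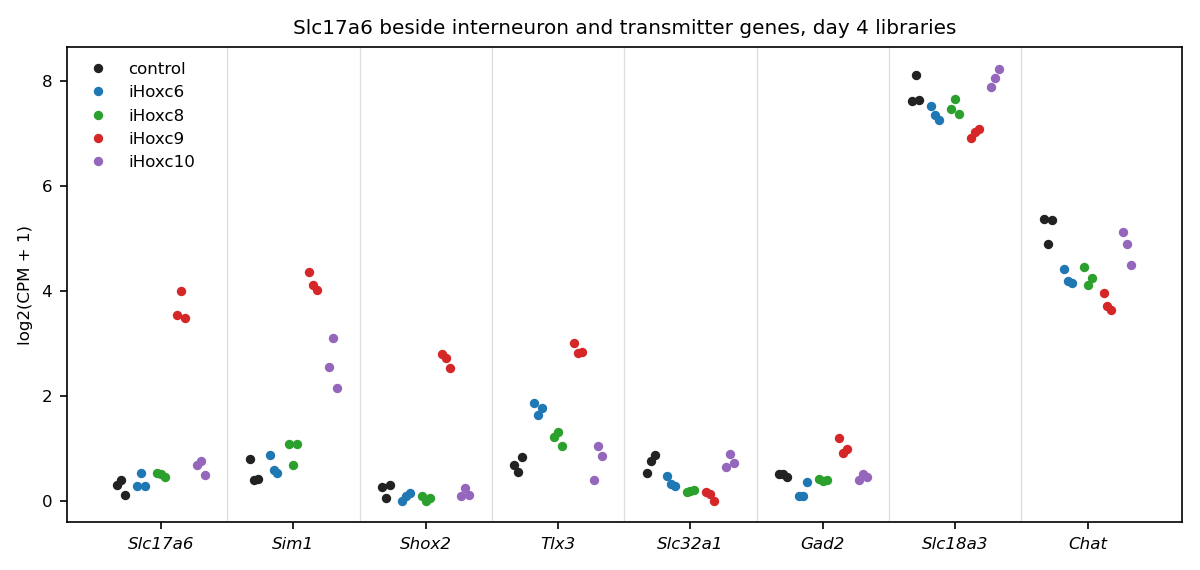
Level of Slc17a6, 3 excitatory interneuron genes and 4 genes of inhibitory or cholinergic transmission, as log2(CPM + 1) (vertical axis), in the 15 day 4 libraries. Each point is a library and colours mark the groups. The iHoxc9 points lie above the other groups for Slc17a6, Sim1, Shox2, Tlx3 and Gad2, and below them for Slc18a3 and Chat.

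In iHoxc10 the pattern of these transmitter genes was different from that in iHoxc9. Of the 10 genes of other transmitters, 1 was higher and none lower than control, beside 1398 higher and 1624 lower of all genes. Compared directly, 5 were lower in iHoxc9 than in iHoxc10, among them Slc32a1, Chat, Slc18a3 and Th, beside 502 of all genes. Slc18a3 held 234.5, 265.7 and 300 CPM in iHoxc10. For this gene the fold between the lines was -1.06 ± 0.19 in log2 terms (edgeR adjusted p = 0.000557). In iHoxc8, Slc32a1 alone of the 10 was lower than control (-2.225 ± 0.462, edgeR adjusted p = 0.0062). None was higher there, and 2.12% of all genes passed. In iHoxc6 none of the 10 passed, beside 0.587% of all genes. Without passing, Chat was lower and Th higher than control in both of these lines.

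The genes whose levels followed each member most closely were listed over the 15 day 4 libraries by Pearson's r of log2(CPM + 1), among 12703 genes with a mean of at least 1 CPM. The 15 libraries share lines and runs, and these values are a description. Slc17a6 was most like Hoxc9 itself (r = 0.991), which is the induced gene, then Shox2 (0.984) and Grm5, a metabotropic glutamate receptor (0.984), which held 8.08 CPM in iHoxc9 and at most 0.136 CPM in the other day 4 groups. Slc17a7 was most like Cacng5 (0.944), an auxiliary subunit of AMPA-type glutamate receptors, then Igfbpl1 (0.929) and Tle1 (0.925), which an antisense gene overlaps. For Slc1a2 they were Thsd7a (0.987), Tet1 (0.980), which oxidises methylated cytosine, and Bmpr2 (0.979), a BMP receptor.

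Slc1a1 was most like Nlgn3 (0.971), a synaptic adhesion gene that overlaps another gene on its strand, then Fblim1 (0.942) and Pde4dip (0.915), which holds a microRNA gene. Slc1a3 was most like Zfp395 (0.929), Hk2 (0.900), a hexokinase, and Nfx1 (0.890). Slc17a8 did not reach a mean of 1 CPM in any group and was left out. Among the members themselves, r was highest between Slc17a6 and Slc1a2 (0.715) and lowest between Slc17a8 and Slc1a3 (-0.493), over the same 15 libraries.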

How the data were processed

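Poly(A) RNA libraries (TruSeq stranded, with ERCC spike-ins in the input) were aligned to mm10 with STAR 2.7.0c, processed with Picard 2.8.2 and counted with featureCounts by the authors, per the labels, and the deposited files hold raw read counts per gene by Entrez ID. The strand setting is not given in the sources used here. Symbols and positions came from RefSeq (GRCm38.p6, 25275 of 27179 IDs matched), and strands, exon lengths and overlaps from GENCODE.

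Libraries were grouped by their labels, and the study describes the replicates as separate differentiations. A gene was kept if any iHox library held at least 1 count of it (20944 genes), and all 18 libraries were fitted together with edgeR 4.0.16 in R 4.3.3 (TMM scaling, quasi-likelihood test, Benjamini-Hochberg adjustment). Calls used the study's adjusted p under 0.01 and log2 fold change beyond 2. Counts of listed genes other than the members used the adjusted p alone. SE is the log2 fold change divided by the root of F, and CPM uses the TMM-scaled library size. In simulated counts of iHoxc9 against control (20460 genes, 100 changed per size), edgeR recovered 75% of log2 changes of 1 and 99% of changes of 3. The changed genes were drawn from those with a mean of at least 1 CPM. These rates therefore do not cover Slc17a8 or the low control level of Slc17a6.

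The members, lists and tests were chosen with earlier results of these data known. Named genes were the 6 members, genes of the lists (those past an adjusted p of 0.01 and a log2 fold change of 1 first), and the 3 genes most like each member. Deviations of same-numbered libraries correlated at 0.456 to 0.578 for iHoxc9 with iHoxc10 and at 0.122 to 0.220 for iHoxc6 with iHoxc9. Other comparisons gave values from -0.461 to 0.360, so the latter range is weak ground for a pairing. The labels state no pairing, and the replicate block was used as an alternative only. Depth of 24498630 to 33168533 counts put 3 counts at 0.0904 to 0.122 CPM, and intervals cover counting error only. Alternatives were DESeq2 1.42.0, its size factors in edgeR, other filters, fits of the compared groups only, a replicate block, a log2 cutoff of 1, and leaving out each library. Some genes of the lists are counted but not reported here by name.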

Additional observations from a re-analysis of the deposited data

Results flagged for a closer look

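Differences between induced lines stood out for 2 of the 6 genes. Slc17a6 was higher in iHoxc9 than in iHoxc10 by 4.38 on the log2 scale, and the difference for iHoxc6 against iHoxc9 was -5.34. Both differences were tested directly and kept their call under all 12 alternatives. Slc17a8 differed by -3.38 for iHoxc6 against iHoxc9 and by -2.98 for iHoxc6 against iHoxc10, also tested directly, but these rest on 4 reads over the 3 iHoxc6 libraries and were lost when single libraries were left out. The lines of the Slc17a6 difference between iHoxc9 and iHoxc10 shared a run, and those of the others did not. With 3 libraries per group, no single library was examined as an outlier.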

How the results depend on the processing

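Of 864 log2 fold changes of the 6 members (72 comparisons of a member under 12 alternatives), 771 stayed within 1 SD of the reported value, 93 moved further and 0 called values changed sign. That SD is a different measure from the SE printed with each fold change. Counting values that were not called, the sign never changed in 65 of the 72 comparisons. With a log2 cutoff of 1 in place of 2, the members called against control became 3 in iHoxc9, 2 in iHoxc10 and 1 in iHoxc6, and against day 2 progenitors 6 in iHoxc9, 3 each in iHoxc10 and iHoxc8, and 2 each in iHoxc6 and control. Leaving out 1 library at a time gave between 0 and 1 called members for iHoxc8 against day 2 progenitors, between 0 and 2 for iHoxc10 against day 2 progenitors, between 1 and 2 for iHoxc6 against iHoxc9, and between 0 and 1 for iHoxc6 against iHoxc10, and the cause was not tested. With the replicate block, Slc17a6 differed by 4.40 between iHoxc9 and iHoxc10 and by -5.38 between iHoxc6 and iHoxc9, and the block changed no call in these comparisons. Elsewhere it brought Slc17a6 in iHoxc10 against control (1.46) under the adjusted p threshold, as did DESeq2 (1.49). Depth limits Slc17a8, and Slc17a6 outside iHoxc9, to a few reads per library.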
